A study of Mus musculus with 7 samples.

Results

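The respiratory chain of mouse endometrial epithelial cells was followed through 84 of the 21865 protein-coding genes in the count tables, 71 encoded in the nucleus and 13 in the mitochondrial genome. They were chosen by symbol alone, as subunits of NADH dehydrogenase (Nduf, complex I), succinate dehydrogenase (Sdh, complex II), the cytochrome bc1 complex (Uqcr, complex III) and cytochrome c oxidase (Cox4 to Cox8, complex IV), with the mitochondrially encoded mt-Nd, mt-Cytb, mt-Co and mt-Atp genes. By symbol, the nuclear genes fell into 37 of complex I, 4 of complex II, 8 of complex III, 18 of complex IV and 4 assembly factors of complex II (Sdhaf1 to Sdhaf4), which the symbol pattern also takes. Ndufa4 and its relative Ndufa4l2 were kept with complex I by name, although Ndufa4 is known as a subunit of complex IV. The mitochondrial genes comprised 7 of complex I, 1 of complex III, 3 of complex IV and 2 of ATP synthase (complex V). Another 7 genes whose symbols matched were left out because they are not annotated as protein-coding (6 processed pseudogenes and the non-coding Ndufb1-ps).

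RNA was sequenced from EPCAM-positive cells of CD-1 mouse uteri, sorted with magnetic beads after enzymatic dissociation. The mutant group, written LtfCre0/+; Brg1fl/fl, comprised 4 libraries of 1 mouse each at 120 days. These mice carry a Cre recombinase under the lactoferrin gene Ltf, which is active in uterine epithelium, and both copies of a floxed Brg1. Brg1, the product of Smarca4, drives SWI/SNF complexes, which move and evict nucleosomes. The control group comprised 3 wild-type CD-1 libraries, each from pooled mice of unstated age and taken over from an earlier series. The genotype therefore cannot be told apart from pooling, the set of libraries or any difference in age. Gene reads on the sense strand numbered 12436971 to 13364080 in mutants and 21372036 to 25862245 in controls. Smarca4 stood at 87.6, 56.7, 86.9 and 105 reads per 1000000 gene reads (CPM, scaled by the trimmed mean of M values, TMM) over mutant replicates 1 to 4, while control replicates 1 to 3 had 263, 245 and 279 CPM. It was lower in 4 of 4 mutants (log2 fold change −1.64 ± 0.23 SE, edgeR quasi-likelihood test with Benjamini-Hochberg adjustment, adjusted p = 0.00967). The floxed exons are not named in the labels, and a gene count includes reads from outside the deleted part.

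Complexes I, III and IV pass electrons from NADH to oxygen and pump protons across the inner mitochondrial membrane, while complex II feeds in electrons from succinate without pumping. Complexes I, III, IV and V are built from subunits of both genomes, and complex II from nuclear subunits alone. Mitochondrial DNA is transcribed from both strands into long precursors that are cut into single RNAs, and among its protein-coding genes mt-Nd6 alone lies on the opposite strand from the rest.

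That arrangement is shown by the ends of mt-Nd5 and mt-Nd6, which run towards each other and overlap, since the result for mt-Nd6 turns on strand. Both lines give the last 30 bases of the gene, 5′ to 3′ on its own strand, from the GENCODE M21 transcripts (GRCm38), at chrM:13536-13565 on the plus strand and chrM:13552-13581 on the minus strand. The capitals mark the 14 bases that both genes share on opposite strands.
mt-Nd5: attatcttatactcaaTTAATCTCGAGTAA
mt-Nd6: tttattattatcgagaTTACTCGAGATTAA

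A further pair of sequences shows what limits the counts of the other mitochondrial genes. The first 60 bases of mt-Nd3 (chrM:9459-9518, plus strand) are set beside the same stretch of Gm28438, an annotated nuclear pseudogene (chr1:24613060-24613119, minus strand). The capital marks the base that differs, the only difference over the 345 bases of the copy.
mt-Nd3: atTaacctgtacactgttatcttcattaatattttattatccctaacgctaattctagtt
Gm28438: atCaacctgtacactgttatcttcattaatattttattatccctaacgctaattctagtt

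Of the 13 mitochondrially encoded genes, 7 had enough reads to be tested and 6 did not. mt-Nd3, mt-Nd4l, mt-Co3, mt-Atp6 and mt-Atp8 were listed at 0 in each of the 7 libraries, and mt-Co2 had 1 read in mutant replicate 3 and 1 in control replicate 2. Between 98.0% and 100% of the 50-base words of mt-Nd3, mt-Nd4l, mt-Co2, mt-Co3 and mt-Atp6 also occur in annotated nuclear pseudogenes on chromosome 1, and the copies of mt-Co2, mt-Atp6, mt-Co3 and mt-Nd4l (Gm28661, Gm10925, Gm28437 and Gm10222) were identical over the 681, 678, 783 and 294 bases compared. STAR gene counts leave out reads that map to several places, so the counts of these 5 genes are no measure of expression. For mt-Atp8, a small ATP synthase gene that overlaps mt-Atp6, no such word was shared with another annotated gene. The search covered annotated transcripts alone, so an unannotated copy could not be seen. mt-Atp8 starts between mt-Co2 and mt-Atp6, whose copies lie at chr1:24614885-24615565 and chr1:24613974-24614651. Why mt-Atp8 was listed at 0 was not tested. Words were also shared by mt-Nd4 (62.2%) and mt-Co1 (51.1%), whose counts therefore rest on part of their length, and by mt-Nd2 (8.19%) and mt-Nd5 (7.61%). None were shared by mt-Nd1, mt-Nd6 or mt-Cytb.

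mt-Nd6, a membrane subunit of complex I, was the mitochondrial gene that passed the test. It had 3540, 3056, 3494 and 2907 reads in mutant replicates 1 to 4, against 1511, 980 and 1070 reads in control replicates 1 to 3. Scaled, it stood at 277, 234, 245 and 177 CPM in mutants and at 79.7, 51.8 and 48.6 CPM in controls. Every mutant library lay above every control library. The log2 fold change was 1.96 ± 0.26 SE (edgeR adjusted p = 0.00878). In all, 1 of 7 tested mitochondrial genes was called, beside 11.5% of the 14610 genes tested (5.37% higher and 6.18% lower). The authors' deposited table gives mt-Nd6 a log2 fold change of 1.97 ± 0.29 SE with an adjusted p of 1.66e-09. In edgeR the call was lost without control replicate 2 (1.90, adjusted p = 0.0532) or control replicate 3 (1.85, adjusted p = 0.0539).

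**Figure D1:**
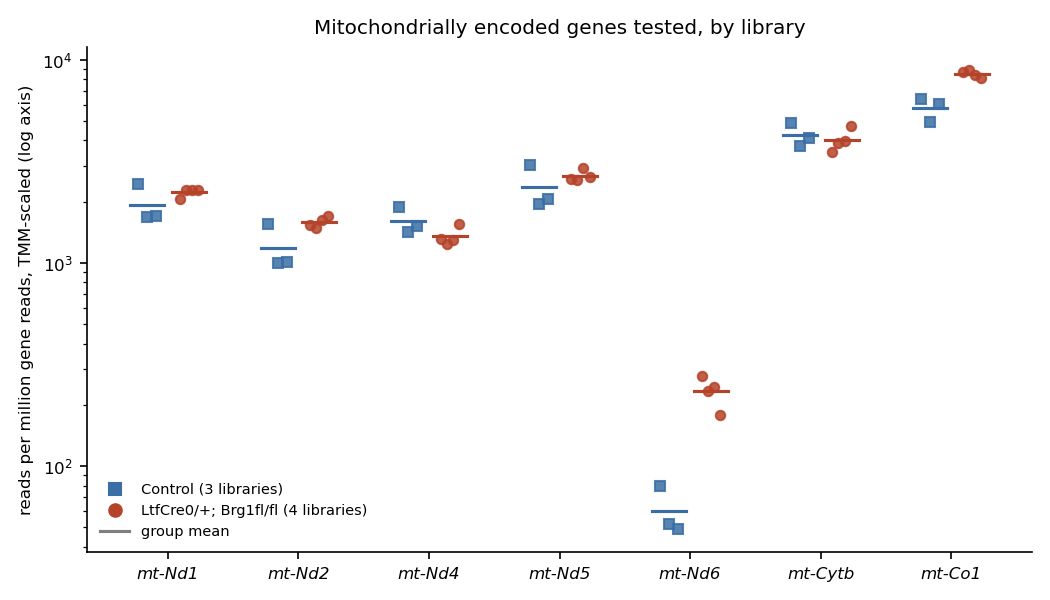
TMM-scaled CPM (log axis) of the 7 tested mitochondrially encoded genes, with 1 point per library (squares: 3 controls, circles: 4 mutants) and a bar at each group mean. The groups are apart at mt-Nd6 (177 to 277 CPM against 48.6 to 79.7 CPM) and at mt-Co1, and overlap at the other 5 genes.

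The remaining complex I genes on the other strand did not pass. mt-Nd1 stood at 2054 to 2279 CPM in mutants against 1676 to 2429 CPM in controls (0.20 ± 0.23 SE), and mt-Nd5 at 2562 to 2922 CPM and 1950 to 3031 CPM (0.19 ± 0.24 SE). mt-Nd2 stood at 1486 to 1690 CPM and 994 to 1547 CPM (0.42 ± 0.23 SE), and mt-Nd4 at 1241 to 1545 CPM and 1409 to 1877 CPM (−0.25 ± 0.20 SE). In these 4 genes the groups overlapped, with control replicate 1 the highest control in each. mt-Cytb, the haem-carrying core of complex III, overlapped as well, at 3521 to 4700 CPM in mutants against 3760 to 4869 CPM in controls (−0.08 ± 0.24 SE).

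mt-Co1, the catalytic subunit of complex IV, stood at 8644, 8889, 8429 and 8154 CPM over mutant replicates 1 to 4, while control replicates 1 to 3 had 6390, 4950 and 6040 CPM. The groups did not overlap, yet the log2 fold change of 0.56 ± 0.25 SE missed the threshold (edgeR adjusted p = 0.169). Non-overlap was common, at 31.5% of all genes tested (15.4% higher and 16.1% lower). The authors' deposited table, made with DESeq2, lists mt-Co1 at 0.57 ± 0.21 SE with an adjusted p of 0.0448.

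Among the 7 mitochondrial genes that were tested, mt-Co1 and mt-Cytb were the most abundant per kilobase of gene in controls, at 3750 and 3706 CPM per kilobase, followed by mt-Nd1 (2020), mt-Nd5 (1286), mt-Nd4 (1160) and mt-Nd2 (1139). mt-Nd6 was lowest of the tested 7, at 116 CPM per kilobase in controls and 449.5 CPM per kilobase in mutants. The levels of mt-Co1 and mt-Cytb did not differ beyond their spread over the controls, nor did those of mt-Nd5, mt-Nd4 and mt-Nd2. Since part of mt-Co1 and mt-Nd4 cannot be counted, their levels are lower limits.

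Within the mitochondrial reads themselves, a measure that no scaling of nuclear genes enters, the make-up differed. mt-Nd6 took 1.39%, 1.14%, 1.18% and 0.836% of the protein-coding mitochondrial reads in mutants and 0.394%, 0.351% and 0.296% in controls. mt-Co1 took 38.5% to 43.4% in mutants and 31.6% to 36.7% in controls. mt-Cytb took 17.7% to 22.2% and 24.1% to 25.4%, and mt-Nd4 6.03% to 7.29% and 9.18% to 9.52%. The ranges did not overlap for any of these 4 genes, higher in mutants for mt-Nd6 and mt-Co1 and lower for mt-Cytb and mt-Nd4, while mt-Nd1, mt-Nd2 and mt-Nd5 overlapped. These shares were not tested, and because they sum to the whole, a higher share of mt-Co1 lowers the others. Reads mapping to several places, which could include those of mt-Co1 and mt-Nd4, made up 8.45% to 10.4% of the reads in mutants and 10.3% to 11.2% in controls, and their part in these shares was not tested. The length and layout of the reads are not named in the labels, so the countable part of mt-Co1 and mt-Nd4 may differ between the mutant libraries and the reanalysed controls, which bears on the shares and on the difference at mt-Co1.

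The 7 tested mitochondrial genes, 2 of them counted over only part of their length, together took 2.05%, 2.14%, 2.37% and 2.60% of gene reads in mutant replicates 1 to 4 (mean 2.29% ± 0.25 SD, n = 4) and 1.77%, 1.31% and 1.399% in control replicates 1 to 3 (1.49% ± 0.24 SD, n = 3). These shares include the 13 members, of which the other 6 added at most 1 read in a library. The ranges did not overlap, and the difference of 0.80 percentage points is a description with no test. The 71 nuclear members took 0.377% to 0.509% in mutants and 0.353% to 0.430% in controls, which overlapped. The ratio of mitochondrial to nuclear member reads overlapped too, at 4.21 to 5.44 in mutants and 3.25 to 5.01 in controls. A share of all reads moves with every other gene in the library, and fewer cells of a type and less RNA per cell cannot be told apart in bulk samples.

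Because mt-Nd6 overlaps mt-Nd5 tail to tail, its count was set beside the reads on the opposite strand at the same place. Those opposite reads, which share the strand of mt-Nd5, were 9881 to 12813 in mutants and 10453 to 16603 in controls, several times the reads of mt-Nd6 itself. Reads on the strand of mt-Nd6 made up 25.2%, 23.6%, 21.4% and 18.8% of both strands in mutants and 8.34%, 8.57% and 8.33% in controls, without overlap. In the unstranded counts, where both strands are summed, mt-Nd6 had a log2 fold change of −0.13 (adjusted p = 0.725), where the difference was gone.

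The same strand was also measured along mt-Nd5, whose last 14 bases it shares with mt-Nd6, so that reads of mt-Nd6 running past its end can be counted there too. At mt-Nd5 4845, 3954, 4572 and 4224 opposite-strand reads were counted in mutants and 3378, 2443 and 2486 in controls. They formed 12.8%, 10.6%, 9.88% and 8.88% of both strands in mutants and 5.55%, 6.21% and 5.21% in controls, without overlap. In an edgeR fit of the opposite-strand counts of 6200 genes, added after the data had been seen, mt-Nd5 had a log2 fold change of 1.14 ± 0.32 SE and just missed the threshold (adjusted p = 0.0507), with 9.82% of those genes called. None of the 7 mitochondrial protein-coding genes passed in that fit. The fold change of opposite-strand reads was −0.04 at mt-Nd1 (adjusted p = 0.940), 0.13 at mt-Nd4 (0.833), 0.58 at mt-Nd2 (0.190) and 0.55 at mt-Cytb (0.219). At mt-Co1 such reads stood at 12.9 to 20.2 CPM in mutants and overlapped the 15.9 to 18.5 CPM of controls (−0.18 ± 0.25 SE, adjusted p = 0.686). As a part of both strands they were 0.153% to 0.248% in mutants and 0.289% to 0.320% in controls, a percentage that is also lowered by the higher sense count of mt-Co1 in mutants.

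**Figure D2:**
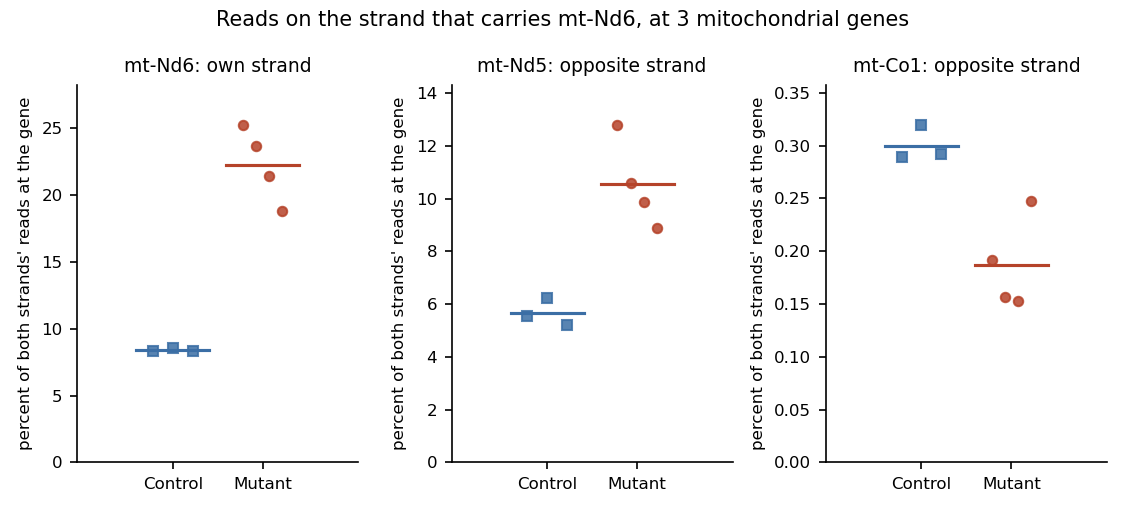
Reads on the strand that carries mt-Nd6, as a percentage of both strands' reads at mt-Nd6, mt-Nd5 and mt-Co1 (squares: controls, circles: mutants, bars: group means, each axis from 0). Mutants lay above controls at mt-Nd6 (18.8% to 25.2% against 8.33% to 8.57%) and mt-Nd5, and below them at mt-Co1, where the percentage was at most 0.320%.

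Of the 71 nuclear members, 64 were tested and 3 changed: Sdhaf4 rose, and Ndufa11 and Ndufb9 fell. That is 4.69% of the members, beside 11.5% of all genes tested. The median log2 fold change was 0.01 over the 64 members and 0.06 over all genes, with 34 members above 0 and 30 below. Groups did not overlap for 6 members that were higher in mutants and 8 that were lower, beside 15.4% and 16.1% of all genes. The share called and both shares of separated ranges lay below those of all genes, and the fold changes of single members ran from −0.94 to 1.44.

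**Figure D3:**
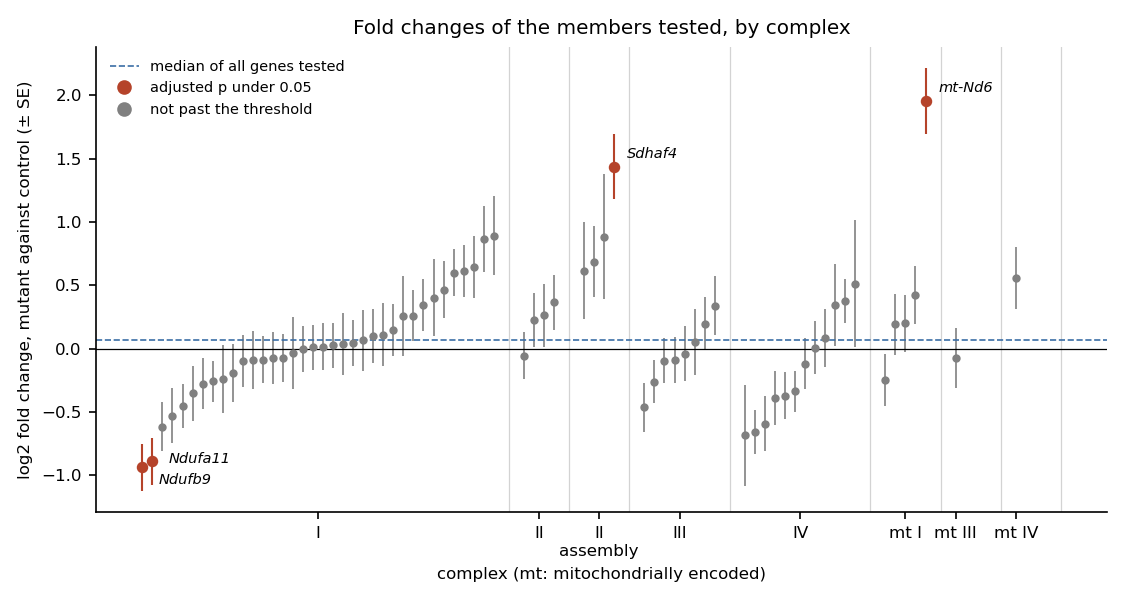
Log2 fold change, mutant against control, with its SE, for the 71 tested members, ordered within each complex, with nuclear complexes at left and mitochondrially encoded genes (mt) at right. The 4 genes past the threshold are red, and the dashed line is the median of all genes tested (0.06); the 4 complex II assembly factors all lie above it.

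The libraries also differed within groups. Relative to the control mean, the median of the 64 nuclear members was −0.22, 0.20, 0.07 and −0.03 (log2 CPM with 0.5 added) in mutant replicates 1 to 4, against −0.15, −0.06 and 0.21 in control replicates 1 to 3. Mutant replicate 1 was the lowest of the 7 libraries and the only mutant below the lowest control. Without it, 12 of 65 tested nuclear members passed (7 higher and 5 lower, 18.5%), beside 29.5% of all genes (15.5% higher and 14% lower). The 12 were Ndufa8, Ndufc2, Ndufs1, Ndufs3, Ndufs4, Sdhaf2 and Sdhaf4, which were higher, and Ndufa6, Ndufa11, Ndufb9, Ndufb11 and Cox8a, which were lower.

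**Figure D4:**
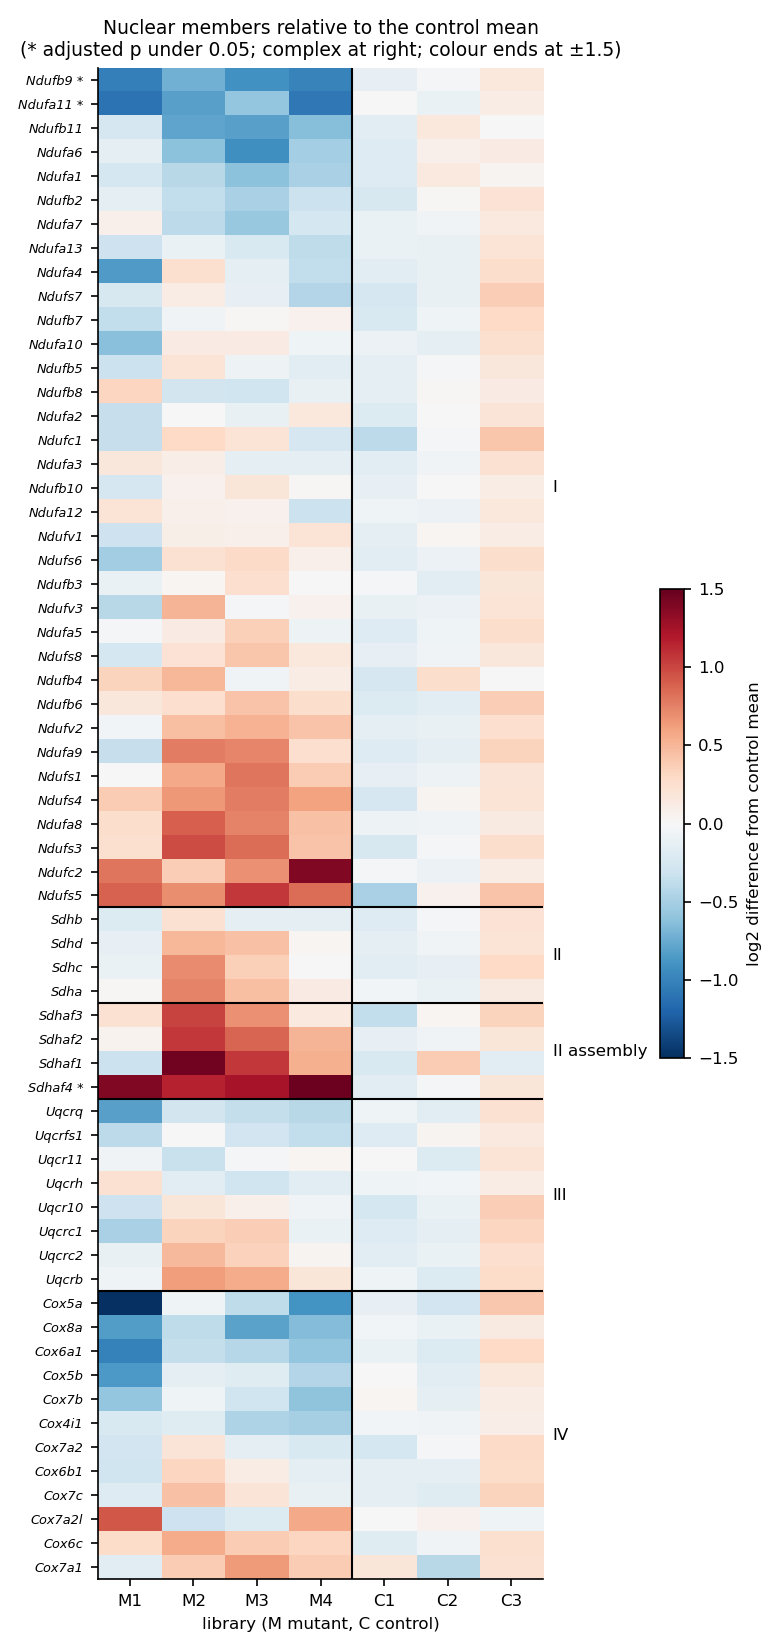
Difference of 63 of the 64 tested nuclear members from the mean of the 3 controls (log2 CPM with 0.5 added, red higher, blue lower), with mutant libraries M1 to M4, control libraries C1 to C3, and rows ordered by fold change within each complex. Ndufb9 and Ndufa11 are blue and Sdhaf4 red in 4 of 4 mutants, and mutant replicate 1 is the bluest mutant column for Cox5a (50.1 CPM), Cox5b and Uqcrq.

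In complex I, 36 of 37 nuclear genes were tested, 2 fell and none rose (median 0.01). Both genes that fell encode accessory subunits, which surround the catalytic core. Ndufa11, a membrane-arm subunit at chr17:56717767-56722141 (plus strand), stood at 29.6, 36.1, 42.7 and 30.1 CPM over mutant replicates 1 to 4, while control replicates 1 to 3 had 63.6, 59.9 and 69.1 CPM. Every mutant lay below every control (−0.89 ± 0.19 SE, edgeR adjusted p = 0.0284). The call was lost without mutant replicate 2 or 4, without any control, with total-count scaling (−0.54, adjusted p = 0.0944) and with no filter on low counts. Its pseudogene Ndufa11b had 1 to 8 reads in mutants and 4 to 16 in controls.

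Ndufb9, an accessory subunit at chr15:58933756-58939488 (plus strand), stood at 12.9, 16.0, 13.9 and 13.1 CPM in mutants and at 24.4, 26.1 and 29.8 CPM in controls. The groups were again apart (−0.94 ± 0.18 SE, edgeR adjusted p = 0.0236). Its count is uncertain in part, since 15.6% of its 50-base words occur in Gm49356, which itself had 0 reads in every library. The call was lost without mutant replicate 3 or 4, without any control, with total-count scaling (−0.59, adjusted p = 0.0671) and with no filter on low counts.

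Other complex I genes moved in both directions without passing in edgeR. Ndufs5, a small accessory subunit, stood at 8.60, 7.52, 9.80 and 8.29 CPM in mutants and 3.01, 4.66 and 6.14 CPM in controls (0.89 ± 0.31 SE, edgeR adjusted p = 0.104), and Ndufc2 at 74.7, 54.9, 68.8 and 112 CPM and 41.7, 40.05 and 46.1 CPM (0.87 ± 0.26 SE, adjusted p = 0.0706). Neither pair of ranges overlapped. Ndufs5 shares 21.7% of its words with the pseudogene BC002163, which had 5 to 8 reads in mutants and 24 to 80 in controls, and its part in the difference was not tested. Ndufs4, an accessory subunit of the matrix arm, stood at 41.1 to 53.8 CPM in mutants against 26.5 to 36.5 CPM in controls (0.60 ± 0.19 SE, adjusted p = 0.0790), also without overlap. Ndufa8 did not overlap either, at 44.7 to 69.7 CPM against 35.2 to 40.8 CPM (0.61 ± 0.21 SE). On the other side, Ndufb11 stood at 48.3 to 71.6 CPM in mutants against 75.8 to 95.2 CPM in controls (−0.62 ± 0.20 SE, adjusted p = 0.0837). Ndufa6 overlapped, at 37.4 to 64.9 CPM against 62.3 to 78.1 CPM (−0.53 ± 0.22 SE). In the authors' deposited table, made with DESeq2, Ndufc2 (adjusted p = 0.0112), Ndufb11 (0.0365) and Ndufs4 (0.0403) lie under 0.05. Ndufa8 (0.0949), Ndufa6 (0.108) and Ndufs5 (0.362) lie above it there.

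Ndufs3, a core subunit of the matrix arm, stood at 33.9 to 56.9 CPM in mutants against 24.1 to 34.5 CPM in controls (0.65 ± 0.24 SE). Ndufa4, the most abundant nuclear gene of complex I per length (288 CPM per kilobase in controls), stood at 83.7, 179, 138 and 118 CPM in mutants and 136, 140 and 183 CPM in controls (−0.24 ± 0.27 SE). Neither gene passed the test.

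None of the 4 subunits of complex II, which is both a respiratory complex and an enzyme of the citrate cycle, passed the test. Sdha, the flavoprotein, stood at 200 to 332 CPM in mutants against 185 to 216 CPM in controls (0.36 ± 0.22 SE). The membrane anchors Sdhc and Sdhd had fold changes of 0.26 ± 0.25 SE and 0.23 ± 0.21 SE, and the iron-sulphur subunit Sdhb of −0.06 ± 0.19 SE. The groups overlapped for each of the 4. Sdhd was the most abundant of them per length, at 83.7 CPM per kilobase in controls.

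The assembly factors of complex II included the nuclear member that rose. Sdhaf4, which helps the flavoprotein Sdha into the complex, lies at chr1:23995939-24005656 on the minus strand. It had 119, 102, 118 and 162 reads in mutant replicates 1 to 4, against 54, 60 and 82 reads in control replicates 1 to 3, which is 9.31, 7.82, 8.26 and 9.87 CPM against 2.85, 3.17 and 3.73 CPM. Every mutant lay above every control (1.44 ± 0.26 SE, edgeR adjusted p = 0.0186), and the authors' deposited table gives 1.45 ± 0.29 SE with an adjusted p of 2.3e-05. The call was lost without any 1 of the 3 controls and in the unstranded counts (0.90, adjusted p = 0.0796). The opposite strand held 0 to 2 reads per library, and the antisense gene Gm26524, which shares 7.64% of its words, 0.

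Sdhaf2, which attaches the flavin to Sdha, stood at 17.0, 34.8, 30.5 and 23.6 CPM in mutants and 15.0, 15.8 and 18.6 CPM in controls (0.69 ± 0.28 SE, adjusted p = 0.143). It overlapped through mutant replicate 1 and passed without that library (0.89, adjusted p = 0.0193). Sdhaf1 stood at 2.42, 9.51, 7.14 and 4.81 CPM against 2.64, 4.29 and 2.77 CPM (0.89 ± 0.49 SE), and shares 69.0% of its words with the overlapping E130208F15Rik, which leaves its count uncertain. Sdhaf3 had a fold change of 0.62 ± 0.38 SE. The median of the 4 was 0.79, beside 0.25 for the 4 subunits and 0.06 for all genes. The difference between assembly factors and subunits was not tested.

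The promoters of the nuclear genes past the threshold are shown where the RefSeq table (GRCm38.p6) holds them, as the 250 bases before the annotated start, 5′ to 3′ on the gene's strand. They cover chr1:24005641-24005890 (minus strand) for Sdhaf4 and chr17:56717512-56717761 (plus strand) for Ndufa11. Capitals mark matches to a motif that the nuclear respiratory factor NRF1 is known to bind, searched as GCGCATGCG on both strands, and Ndufa11 holds overlapping matches from 60 to 51 bases before its start.
Sdhaf4: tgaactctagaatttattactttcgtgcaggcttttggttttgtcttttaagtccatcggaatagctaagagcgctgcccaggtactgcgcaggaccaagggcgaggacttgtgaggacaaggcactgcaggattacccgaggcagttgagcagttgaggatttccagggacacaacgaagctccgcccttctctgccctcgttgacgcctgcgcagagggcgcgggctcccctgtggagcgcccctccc
Ndufa11: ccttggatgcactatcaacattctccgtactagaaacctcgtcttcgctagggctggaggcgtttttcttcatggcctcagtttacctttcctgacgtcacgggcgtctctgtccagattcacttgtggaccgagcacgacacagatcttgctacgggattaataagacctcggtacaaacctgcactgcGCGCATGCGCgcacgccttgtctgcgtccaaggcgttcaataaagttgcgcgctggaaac
Of the 71 nuclear members, 57 had a promoter in the table, taken as 250 bases before to 50 after the start. The NRF1 motif occurred in 5 of them (8.77%) and in 2.74% of the 16504 protein-coding genes with a promoter. The other letters searched on both strands were CCGGAAGT for ETS factors (4 members, 7.02% against 5.94%), AAGATGGCG for YY1 (5 members, 8.77% against 2.25%) and TCAAGGTCA for ERR receptors (1 member, Sdhd, 1.75% against 0.388%). Members with an NRF1 match were Cox6a1, Ndufa11, Ndufa8, Uqcr11 and Uqcrc1, of which Ndufa11 fell and the others did not pass. Those with a YY1 match were Ndufa9, Ndufc1, Ndufs4, Ndufs6 and Ndufs7, none past the threshold. The 4 motifs together marked 14 of the 57 promoters (24.6%, beside 10.7% of all genes), and these matches are letters in a window, not sites.

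All 8 genes of complex III were tested and none passed (median −0.07, from −0.46 to 0.34). Uqcrh, the hinge protein and the most abundant per length (231 CPM per kilobase in controls), stood at 102 to 148 CPM in mutants against 120 to 136 CPM in controls (−0.09 ± 0.18 SE). Groups were apart for 1 gene, Uqcrq, named after its values were seen, which stood at 44.8 to 65.4 CPM in mutants against 70.8 to 92.9 CPM in controls (−0.46 ± 0.19 SE, adjusted p = 0.151).

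Of the 18 nuclear genes of complex IV, 12 were tested and none passed, with 5 above 0 and 7 below (median −0.23). Cox8a, the ubiquitous form of the small subunit 8, came nearest. It stood at 121, 167, 125 and 138 CPM over mutant replicates 1 to 4, while control replicates 1 to 3 had 210, 204 and 239 CPM, every mutant below every control. Its log2 fold change of −0.66 ± 0.18 SE had an edgeR adjusted p of 0.0513, and it was called with DESeq2 size factors, limma-voom, the DESeq2 test and without mutant replicate 1 (adjusted p = 0.00481 to 0.0499). The authors' deposited table gives −0.65 ± 0.19 SE with an adjusted p of 0.00677. Cox6a1 stood at 68.9 to 110 CPM in mutants against 122 to 172 CPM in controls (−0.59 ± 0.22 SE), and Cox4i1, a regulatory subunit and the most abundant nuclear member per length (407 CPM per kilobase in controls), at 217 to 271 CPM and 295 to 329 CPM (−0.34 ± 0.16 SE). Neither overlapped and neither passed.

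Cox5a, whose protein binds next to Cox4i1 in the complex, had the lowest fold change of complex IV. It stood at 50.1, 170, 135 and 94.6 CPM in mutants and 162, 145 and 235 CPM in controls (−0.69 ± 0.40 SE). The groups overlapped, and without mutant replicate 1 the fold change was −0.40. Cox7a2l, which helps join complexes III and IV, showed the reverse order among mutants, at 147, 61.5, 66.3 and 114 CPM against 76.5, 80.1 and 73.5 CPM (0.34 ± 0.32 SE). Cox6b1, Cox7a2 and Cox7b had fold changes of 0.01 ± 0.21 SE, −0.12 ± 0.20 SE and −0.37 ± 0.19 SE, with overlapping groups.

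Isoforms known from muscle, brown fat, lung or testis were at or near the bottom of the range. Cox7b2, Cox8b and Cox8c had 0 reads in all 7 libraries, Cox6a2 2 reads in total, Cox4i2 17 and Ndufa4l2 14. Cox6b2, the testis form, had 80 reads in total and 30 at most in a library. None of these 7 was tested. Cox7a1, the heart and muscle form of subunit 7a, was tested at 0.469 to 1.19 CPM in mutants against 0.317 to 0.773 CPM in controls (0.51 ± 0.50 SE). Its counterpart Cox7a2 stood at 122 and 133 CPM per kilobase in mutants and controls, where Cox7a1 had 2.22 and 1.55 CPM per kilobase.

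Scaling bears on every direction given here. Library totals scaled without TMM factors moved the median of all genes from 0.06 to 0.41, and the split of called genes from 784 higher and 903 lower to 2202 and 532. The median of the nuclear members moved with it, from 0.01 to 0.36. The members called were then Ndufa8, Ndufc2, Ndufs3, Ndufs4, Ndufs5, Sdhaf2, Sdhaf4 and Cox6c, 8 higher and none lower, with mt-Nd6 (2.29) and mt-Co1 (0.91, adjusted p = 0.0361). Total-count scaling called 12.5% of the nuclear members tested, beside 18.7% of all genes. Upper-quartile scaling gave a median of 0.20 over all genes and 0.15 over the nuclear members. It called 4 nuclear members higher and 2 lower (9.38%), beside 12.9% of all genes (1178 higher and 704 lower). Under total-count scaling 18 of the 30 nuclear members below 0 turned above it. The median of the nuclear members lay 0.05 below that of all genes with all libraries and 0.08 above it without mutant replicate 1.

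The genes that build, supply or control the chain were described with 9 lists holding 167 genes found in the tables. Of 163 tested, 16 rose and none fell, which is 9.82% called beside 11.5% of all genes (5.37% higher and 6.18% lower). The median was 0.23 beside 0.06 for all genes. Without mutant replicate 1, 40 were higher and 10 lower (30.7%), beside 29.5% of all genes (15.5% higher and 14% lower). With the directions pooled, both shares called lay near those of all genes. By direction, the share higher lay above that of all genes and the share lower lay below it, with and without that library. These differences were not tested. The 16 were spread over 8 of the 9 lists.

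The largest number was in complex I assembly, where 5 of 15 rose and none fell (33.3% called, median 0.60). Of all genes tested 11.5% were called, 5.37% higher and 6.18% lower. Ndufaf1, an assembly factor of the membrane arm, stood at 7.82, 10.51, 12.2 and 8.41 CPM in mutants and 2.69, 1.80 and 2.55 CPM in controls (2.05 ± 0.31 SE, edgeR adjusted p = 0.0117), every mutant above every control. Its partner Tmem126b (1.34 ± 0.34 SE), Foxred1 (1.05 ± 0.22 SE) and Tmem70 (1.05 ± 0.26 SE) also rose, with Ndufaf7 as the fifth. Of the 22 tested assembly genes of complex IV, 1 rose (4.55% called). It was Taco1, a translational activator of mt-Co1, which rose from 1.27, 1.69 and 1.59 CPM to 4.30, 9.21, 9.03 and 5.67 CPM (2.21 ± 0.39 SE, adjusted p = 0.0182). None of the 6 of complex III passed, with fold changes from −1.52 to 0.71. The most abundant, Uqcc1, stood at 22.6 to 30.04 CPM in mutants against 15.9 to 19.7 CPM in controls (0.62 ± 0.19 SE). Without mutant replicate 1, 2 of the 6 were higher and 2 lower (66.7%, beside 29.5% of all genes).

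Among 17 nuclear genes of ATP synthase, 1 rose (5.88% called beside 11.5% of all genes, median −0.08). Atp5l, subunit g of its membrane part, stood at 25.0, 22.6, 22.1 and 21.8 CPM in mutants and at 3.90, 3.91 and 3.68 CPM in controls (2.57 ± 0.20 SE, edgeR adjusted p = 0.00179). The groups lay far apart, with little spread in either. Shared words were not counted for this gene, so the part of Atp5l that can be counted is not known. Of 18 genes for electron carriers and coenzyme Q synthesis, 1 rose (5.56% called). It was Cycs, which encodes cytochrome c, at 31.4, 53.9, 72.1 and 39.9 CPM in mutants and 16.6, 19.0 and 23.0 CPM in controls (1.33 ± 0.31 SE). Of 18 genes of the citrate cycle and pyruvate dehydrogenase, 1 rose (5.56% called). It was Dld, the shared dihydrolipoyl dehydrogenase (0.73 ± 0.19 SE, edgeR adjusted p = 0.0497).

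In the list for mitochondrial DNA replication, transcription and RNA handling, 3 of 31 rose (9.68% called beside 11.5% of all genes, median 0.45). They were Tefm, an elongation factor of mitochondrial transcription, at 1.25 to 4.68 CPM in mutants against 0.158 to 0.741 CPM in controls (2.90 ± 0.69 SE), the single-stranded DNA binding protein Ssbp1 (1.30 ± 0.23 SE) and the RNA-degrading Pnpt1 (0.71 ± 0.18 SE). Without mutant replicate 1, 11 were higher and 1 was lower (38.7%, beside 29.5% of all genes). Of 21 genes for membranes and import, 3 rose with all libraries (14.3% called). They were Phb (1.64 ± 0.34 SE), the chaperonin Hspe1 (1.58 ± 0.28 SE) and Vdac3 (0.87 ± 0.22 SE). Of 15 nuclear regulators, 1 rose (6.67% called), in a list with a median of −0.37. It was Nfe2l2, a regulator of antioxidant genes (0.78 ± 0.20 SE, edgeR adjusted p = 0.0484). The coactivator Ppargc1a, named after its values were seen, reached 101 CPM in mutant replicate 1, with 3.502 to 13.5 CPM in the other mutants, against 25.05 to 65.5 CPM in controls.

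Ribosomal proteins of the mitochondrion and the cytosol gave a further comparison. Of 77 tested mitochondrial ribosomal protein genes, 66 lay above 0 (median 0.40), yet 1 passed, Mrps28, and it fell (−0.82 ± 0.19 SE). With all libraries 5.37% of all genes were called higher and 6.18% lower. Without mutant replicate 1, 28 were higher and 1 was lower (37.7%), beside 15.5% and 14% of all genes. Of 77 cytosolic ribosomal protein genes, 1 rose and 18 fell with all libraries (24.7% called beside 11.5% of all genes, median −0.31). Shared words were not counted for the ribosomal protein genes, so how much of each can be counted is not known. The nuclear members of the chain, at a median of 0.01, lay between these lists, and the differences between lists were not tested.

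**Figure D5:**
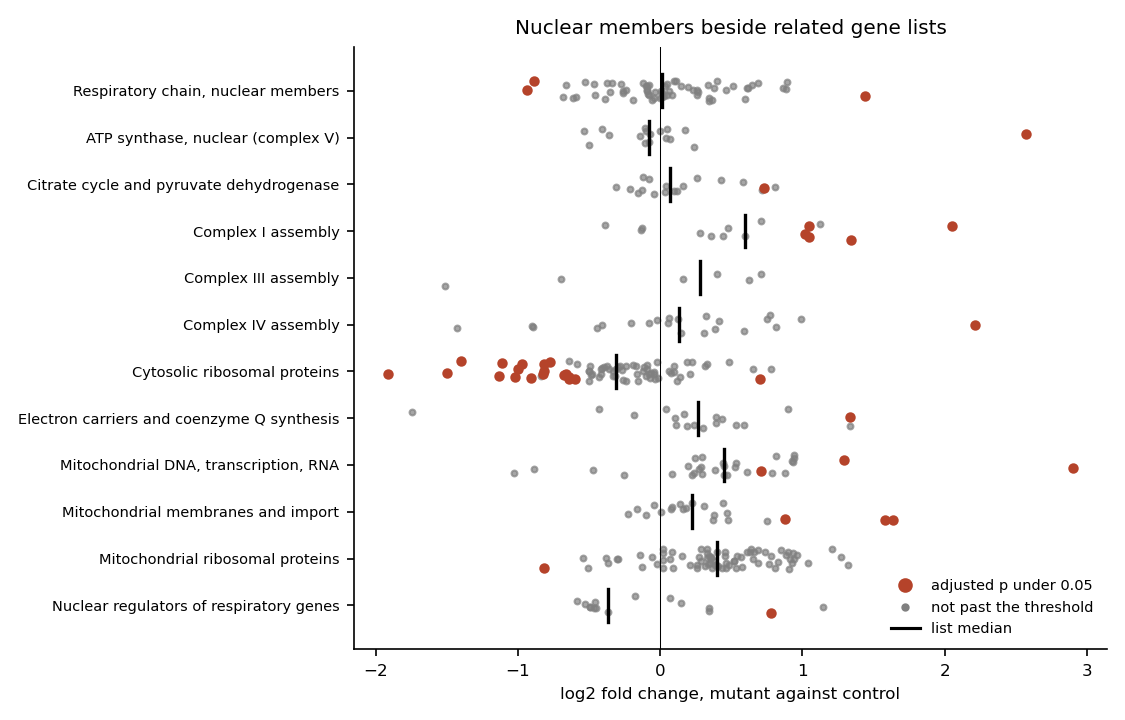
Log2 fold change, mutant against control, of each tested gene (1 point a gene, red where the adjusted p is under 0.05) in the nuclear respiratory chain and 11 other lists, with a bar at the list median. Medians ran from −0.37 in nuclear regulators to 0.60 in complex I assembly, and the nuclear members sat near 0.

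Markers of the sorted epithelium and of other cells were compared as well, and their part in the results above was not tested. The 10 epithelial markers summed to 7951 to 10967 CPM in mutants against 15458 to 18621 CPM in controls, with 2 lower, and Epcam, by which the cells were sorted, was present at 574 to 743 CPM and 823 to 966 CPM. Of 10 stromal markers 2 were lower, with sums of 236 to 545 CPM against 655 to 823 CPM. None of 8 tested muscle markers passed, with sums of 9.59 to 104 CPM and 86.5 to 126 CPM (Myh7 at 0), and none of 7 endothelial (5.29 to 28.7 CPM over all libraries), 10 immune (429 to 725 CPM), 5 mesothelial (9.39 to 39.8 CPM against 43.2 to 58.6 CPM) or the 1 red blood cell marker tested, with globins at 0 or 1 read. Of 3 tested fat markers 1 was lower, with sums of 0.630 to 1.02 CPM against 4.34 to 5.43 CPM and Plin1 at 0. With all libraries 6.18% of all genes tested were called lower. Mutant replicate 1 was highest among the mutants for muscle markers, and without it 5 of the 8 were lower, beside 14% of all genes.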

How the data were processed

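Sense-strand gene counts of 4 mutant and 3 control libraries were used as the authors deposited them, whole-number counts per gene from STAR that are not normalized. The submitters' processing notes name cutadapt, Trim Galore, FastQC, STAR and DESeq2 and the build mm10, with no versions. Per the labels' protocols the libraries were directional. The authors also deposited log2 fold changes, their errors and adjusted p-values from their own comparison, and some are quoted beside the values computed here.

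Of 53379 gene IDs, 53274 matched GENCODE M21, which gave symbols, types and coordinates. In R 4.3.3, genes were kept with filterByExpr and tested with the edgeR 4.0.16 quasi-likelihood test (two-sided, TMM scaling, a model of genotype alone). P-values were adjusted by Benjamini-Hochberg over all 14610 genes tested, with a threshold of 0.05, and the test was tried on simulated data. With each control a pool and each mutant a mouse, p-values measure the spread between these pools and mice. Levels are TMM-scaled reads per 1000000 gene reads (CPM). Levels per length use the principal transcript (APPRIS tag) of GENCODE, or the gene for mitochondrial genes. Shared words are the 50-base stretches of a gene's transcripts that occur in transcripts of another gene. They were counted for the members alone, not for the genes of the other lists.

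Genes named are every mitochondrial member and every nuclear member past the threshold with all libraries or without mutant replicate 1, the removal that moves the count most. To these come the most abundant member per length of each complex, the complex II subunits, paired isoforms of complex IV, the 3 highest and 3 lowest nuclear fold changes, and up to 4 called genes, or the most abundant, of each related list. The members, lists and tests were chosen with earlier results of these data known. Alternatives were DESeq2 size factors, upper-quartile and total-count scaling, library sizes without mitochondrial genes, the DESeq2 1.42.0 and limma 3.58.1 voom tests, no filter on low counts, unstranded counts, a replicate block and leaving out each library. Applying them to Smarca4 and the related lists, and the fit of opposite-strand counts, were added after the data had been seen. The values of 1 member are not reported here, though it counts in the totals.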

Additional observations from a re-analysis of the deposited data

Results flagged for a closer look

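The spread within the 4 mutants was examined for the 71 tested members, and a library was marked where its gap to the nearest other mutant was a larger part of the group's range than the 95% critical value of Dixon's test. It marked 2 members, where chance marks about 1 in 20 groups. For Sdhb the highest library, mutant replicate 2 at 86.8 CPM against 63.8 to 67.3 CPM in the others, had a gap of 0.847 of the range. For mt-Nd1 the lowest library, mutant replicate 1 at 2054 CPM against 2268 to 2279 CPM, had a gap of 0.951. Both genes lay within or across the controls (64.3 to 86.1 CPM and 1676 to 2429 CPM).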

How the results depend on the processing

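The 1687 genes called became 3423 with the DESeq2 test, 1057 without a filter on low counts, 2734 with total-count scaling and 1882 with upper-quartile scaling. With 1 library left out they ran from 133 to 4403. The 3 nuclear members called became 9, 1, 8 and 6 under those settings, and ran from 0 to 12 with 1 library left out. The call of 1 mitochondrial gene became 2 with the DESeq2 test and with total-count scaling and 0 in unstranded counts, and ran from 0 to 1. The 16 related genes became 34 with the DESeq2 test, 7 without a filter and 38 with total-count scaling, and ran from 1 to 50. The causes of these shifts were not tested.

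The labels state no pairing of the samples, and the controls come from an earlier series. The deviations of same-numbered libraries correlated at −0.02, −0.36 and 0.15, and correlations of so few pairs cannot show whether the numbers pair the samples. With a replicate block, 2 genes of all were called, 0 nuclear members, 0 mitochondrial genes and 0 related genes, and Smarca4 stood at −1.79 (adjusted p = 0.127). With 1 library left out Smarca4 ran from −1.76 to −1.48, and its call was lost without any 1 control.

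Among the genes named by rule, signs turned only for genes that did not pass, except mt-Nd6, at −0.13 in unstranded counts. Total-count scaling turned Cox4i1 (0.0042), Cox7a2 (0.23), Ndufa4 (0.11), Sdhb (0.29), Uqcrh (0.25), mt-Cytb (0.29) and mt-Nd4 (0.11), and upper-quartile scaling Cox7a2 (0.0200), Sdhb (0.083), Uqcrh (0.049) and mt-Cytb (0.066), where all genes moved the same way. Cox6b1 turned to −0.029 without a filter, and in unstranded counts Cox7a1 turned to −0.64 and Sdhaf1 to −0.29. With 1 library left out, Cox6b1 ran from −0.10 to 0.18, Cox7a2 from −0.22 to 0.058, Sdhb from −0.16 to 0.084 and mt-Cytb from −0.15 to 0.058. The mitochondrial share kept its direction under every alternative run, but each of these was a share of library totals, without TMM factors. With TMM factors the summed levels of the mitochondrial genes overlapped between the groups.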

Other observations

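In the edgeR fit of opposite-strand reads, 5 of 8 tested mitochondrial transfer RNA genes passed, beside 9.82% of all 6200 genes in that fit. They were mt-Ta, mt-Tn, mt-Ty, mt-Ts1 and mt-Tp, each higher in mutants. mt-Tq, mt-Te and mt-Tc did not pass (log2 fold change 2.03, 1.45 and −0.70, adjusted p = 0.0607, 0.0961 and 0.385). All 8 lie on the strand of mt-Nd6, so these reads lie on the strand of mt-Co1. At mt-Ts1, 400, 461, 456 and 393 opposite-strand reads were counted in mutant replicates 1 to 4 and 0 in each of the 3 controls. The controls were sequenced more deeply and come from an earlier series. The length and layout of the reads are not named in the labels, and their part in the opposite-strand counts was not tested. At mt-Tp, which lies near mt-Cytb, the counts were 434, 282, 428 and 508 against 145, 89 and 105 (log2 fold change 2.32 ± 0.30 SE, edgeR adjusted p = 0.00233 over 6200 genes). At mt-Tn they were 72, 36, 52 and 74 against 0, 3 and 0.

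Reads assigned to the chromosome 1 copies of mitochondrial genes were few, and more in mutants. Gm10925, identical to mt-Atp6 over the bases compared, had 19, 40, 20 and 34 reads in mutants and 0, 0 and 1 in controls, and Gm28438, the copy of mt-Nd3, had 25, 29, 36 and 35 against 8, 2 and 2.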
